A study of Homo sapiens with 8 samples.

Results

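The 9 genes described here are BMP4, a secreted ligand of the bone morphogenetic protein (BMP) family, its antagonist NOG, the membrane pseudoreceptor BAMBI, the inhibitor-of-DNA-binding genes ID1, ID2, ID3 and ID4, and the homeobox genes MSX1 and MSX2. They were taken by name from the deposited tables. Members made up 8 of the 11644 genes in the day 2 counts, and ID3 was analysed at day 0 only, where the table of 14070 genes held all 9. The cells were H1, an established human embryonic stem cell line, either SETD7 knockout (KO) or wild type (WT). SETD7 encodes a lysine methyltransferase of histone H3 and of other proteins. The groups were KO at day 0 (1 library), WT at day 0 (1 library), KO at day 2 (3 libraries) and WT at day 2 (3 libraries). The labels give mTESR as the maintenance medium and a hematopoietic differentiation in a TESR-based medium, with factors that they do not name, as the treatment of every group, day 0 included, without saying what day 0 cells had received. The labels do not say how the knockout was made, whether it was 1 clone, or whether each replicate was its own culture, and the p-values therefore reflect the spread among these libraries alone, which may be technical.

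BMP ligands bind paired serine/threonine kinase receptors that phosphorylate SMAD1, SMAD5 and SMAD9, and these enter the nucleus with SMAD4. Among the genes that they switch on directly are the ID genes, MSX1 and MSX2, and inhibitors of the pathway itself, namely SMAD6, SMAD7 and BAMBI, while NOG binds and blocks the ligand outside the cell. ID proteins have a helix-loop-helix domain without a DNA-binding region and hold E proteins such as TCF3 away from DNA. In differentiating human stem cells, BMP4 is widely used to drive exit from pluripotency towards mesoderm.

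At day 2 the KO cells had less mRNA of the antagonist NOG and of the targets ID1, ID2, MSX1 and MSX2, and more of BAMBI, while BMP4 itself was at the same level in both genotypes to within a few percent. The members that fell changed by −11.5% (MSX1) to −28.5% (NOG), and BAMBI rose by 10.5%. An edgeR quasi-likelihood test with Benjamini-Hochberg adjustment over all 11475 genes tested (adjusted p under 0.05) called 6 of the 8 members, where it called 23.3% of all genes. It called 5 of the 8 lower in KO, against 11.0% of all genes, and 1 higher, against 12.3% of all genes. Because the members were chosen with earlier results of these data known, comparisons of their shares and median with all genes are descriptive only. The median log2 fold change of the 8 members, KO over WT, was −0.24, and that of all genes tested was −0.00262. In 7 of the 8 members the 3 KO libraries did not overlap the 3 WT libraries, as in 37.7% of all genes tested. In such bulk samples, fewer cells that express a gene and less RNA per cell cannot be told apart.

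**Figure D1:**
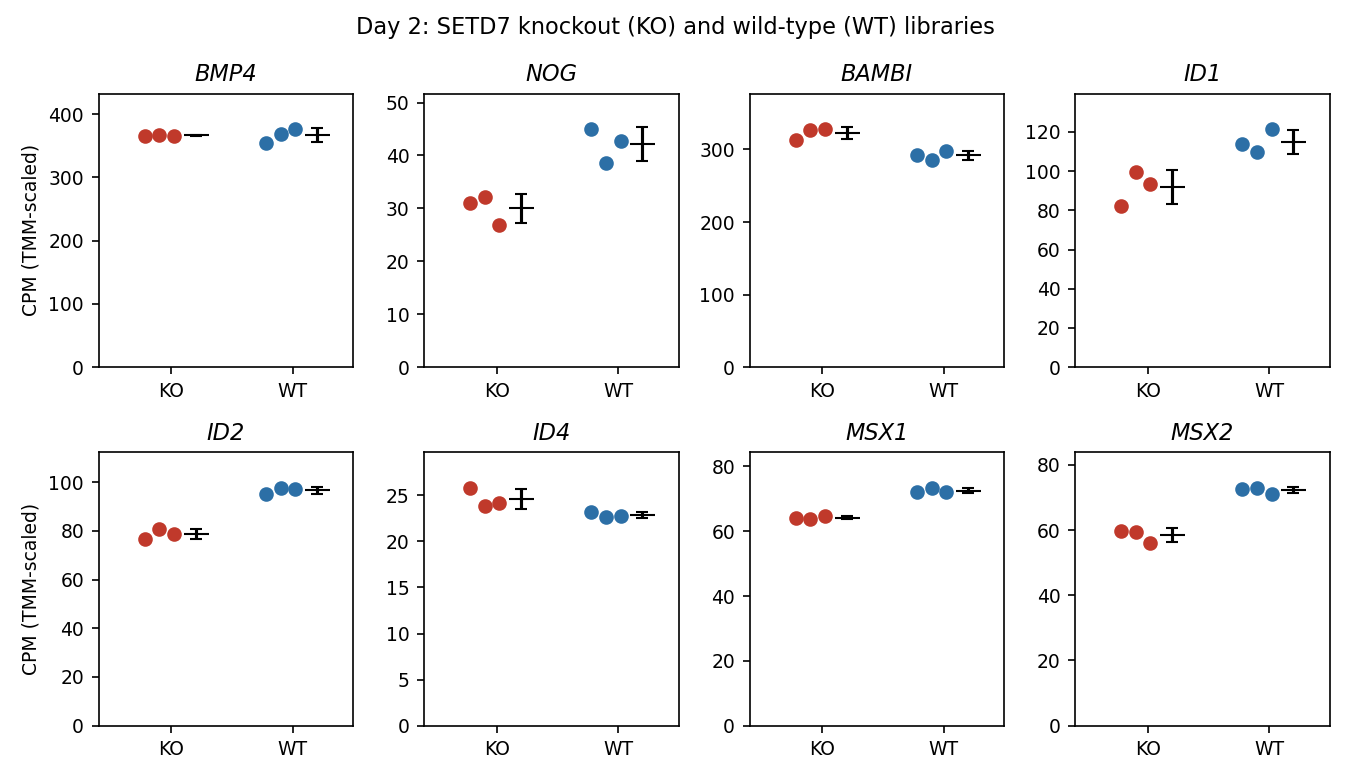
Level of each member at day 2 in CPM (reads scaled to library size by TMM) in the 3 KO (red) and 3 WT (blue) libraries, with the mean and SD beside the points. The KO points lie below the WT points for NOG, ID1, ID2, MSX1 and MSX2, above them for BAMBI and ID4, and among them for BMP4.

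The library totals at day 2 were 29647943 to 39553614 counts in KO and 27880068 to 32230627 in WT, and the depth behind the day 0 FPKM values is unknown. SETD7 mRNA was present in KO at day 2 (32.9, 28.9 and 33.7 CPM, against 54.8, 56.2 and 55.6 CPM in WT) and at day 0 (1.48 FPKM in KO and 3.53 FPKM in WT). It was lower in KO at day 2 (log2 fold change −0.80, edgeR adjusted p 9.51e-13) but not absent, and counts per gene do not check a deletion within it. Genotype split the day 2 libraries on principal component 1 (50.6% of variance), and on component 2 (15.0%) WT replicate 1 stood apart from the other WT libraries. Without WT replicate 1 every member call was kept. The 6 pluripotency markers were all expressed at day 0, with POU5F1 at 113 FPKM in KO and 149 FPKM in WT, NANOG at 22.3 FPKM in KO and 13.7 FPKM in WT, and DNMT3B at 527 FPKM in KO and 318 FPKM in WT, the last 2 past 1.5-fold upwards. The streak gene MIXL1 was at 1.05 FPKM in KO and 0.598 FPKM in WT at day 0, and averaged 1568 CPM in KO and 1467 CPM in WT at day 2.

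BMP4 (chromosome 14, 53949736 to 53958761, minus strand, GRCh38) was at 366, 367 and 366 CPM in KO replicates 1, 2 and 3, against 355, 369 and 376 CPM in WT replicates 1, 2 and 3. The KO libraries lay inside the range of the WT libraries. Its log2 fold change was −0.00227 (SE 0.031) with an edgeR adjusted p of 0.969, and the 95% interval of the difference ran from −4.45% to 4.33%. BMP2, a close relative that signals through the same receptors, rose to 1093 ± 11.9 CPM in KO, against 924 ± 19.3 CPM in WT (SD, n = 3 each; log2 fold change 0.24, edgeR adjusted p 1.01e-07). Of the 12 BMP ligands listed 3 were tested, of which BMP2 was the only one called, where 23.3% of all genes were called. BMP7 was at 6.42 ± 0.451 CPM in KO and 6.96 ± 0.322 CPM in WT (edgeR adjusted p 0.544).

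NOG (chromosome 17, 56593699 to 56595590, plus strand), which encodes the secreted BMP antagonist noggin, had 31.0, 32.1 and 26.9 CPM in KO replicates 1, 2 and 3, against 45.0, 38.6 and 42.8 CPM in WT. Every KO library was below every WT library. In edgeR's fit it fell by 0.48 on the log2 scale (SE 0.067, edgeR adjusted p 1.76e-06), a change of −28.5% with a 95% interval of −34.9% to −21.4%, the largest decrease among the members tested. It was also the only member that passed a test against a minimum change of 1.2-fold (edgeR glmTreat adjusted p 0.0144). For each BMP4 read the KO libraries held 0.0848, 0.0875 and 0.0735 NOG reads, against 0.127, 0.105 and 0.114 in WT, so the antagonist was lower relative to the ligand in every KO library.

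Of 17 extracellular antagonists and modulators listed, 10 were tested, and 3 fell and 2 rose (median log2 fold change 0.02). Among all genes tested, 11.0% were called lower and 12.3% higher. Besides NOG, FST, whose product follistatin binds activin and some BMPs, fell to 286 ± 11.6 CPM in KO, against 336 ± 4.56 CPM in WT (log2 fold change −0.23, edgeR adjusted p 1.64e-06; n = 3 each). The KO libraries were below the WT libraries for FST as for NOG. FSTL1, a secreted follistatin-like protein, rose (541 ± 5.07 CPM in KO and 471 ± 6.49 CPM in WT, log2 fold change 0.20), as did CER1 (8432 ± 100.5 CPM in KO and 7482 ± 44.4 CPM in WT, log2 fold change 0.17), which encodes an antagonist of Nodal, BMP and Wnt ligands. BMPER, which modulates BMP4 outside the cell, was at 220.3 ± 3.57 CPM in KO and 209 ± 1.21 CPM in WT and was not called (edgeR adjusted p 0.0772).

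BAMBI (chromosome 10, 28677342 to 28682939, plus strand) resembles a type I receptor without a kinase and is itself induced by BMP. It had 313, 326 and 328 CPM in KO replicates 1, 2 and 3, against 292, 286 and 298 CPM in WT. All 3 KO libraries were above all 3 WT libraries. The log2 fold change was 0.14 (SE 0.032, edgeR adjusted p 0.00095), an increase of 10.5% with a 95% interval of 5.65% to 15.6%.

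Inhibitors inside the cell went different ways. Of 9 intracellular and membrane inhibitors, BAMBI among them, 2 rose and 2 fell (median log2 fold change −0.00106). Over all genes tested, 12.3% were called higher and 11.0% lower. SMAD6, which competes in BMP signalling, was higher in KO (384, 354 and 359 CPM, against 342, 333 and 343 CPM in WT; log2 fold change 0.11, edgeR adjusted p 0.0151). That call was lost without KO replicate 1 (edgeR adjusted p 0.052) and without WT replicate 2 (0.0959). SMAD7, which blocks receptors of the BMP and TGF-beta branches, fell to 97.1, 92.6 and 91.3 CPM in KO, against 111, 105 and 109 CPM in WT (log2 fold change −0.21, edgeR adjusted p 0.000195). SKIL, a co-repressor that binds SMADs, fell as well (137 ± 7.68 CPM in KO and 155 ± 11.03 CPM in WT, log2 fold change −0.19, edgeR adjusted p 0.00455).

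Of the ID genes tested at day 2, ID1 and ID2 fell and ID4 was not called. ID1 (chromosome 20, 31605283 to 31606515, plus strand) had 82.4, 99.8 and 93.4 CPM in KO replicates 1, 2 and 3, against 114, 109.6 and 121 CPM in WT. The groups did not overlap, although KO replicate 1 was well below the other KO libraries and the coefficient of variation in KO, 9.60%, was the highest of the members tested. The log2 fold change was −0.32 (SE 0.059, edgeR adjusted p 0.000683), and leaving out KO replicate 1 gave −0.25 (edgeR adjusted p 9.54e-06). ID2 (chromosome 2, 8678845 to 8684453, plus strand) had 76.5, 80.7 and 78.8 CPM in KO, against 94.97, 97.7 and 97.2 CPM in WT. All KO libraries were again below all WT libraries, with less spread than for ID1. ID2 fell by 0.30 on the log2 scale (SE 0.042, edgeR adjusted p 1.68e-06); its exons overlap the antisense gene ID2-AS1, and with the strand setting of the counting unknown, reads of the pair cannot be told apart.

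ID4 (chromosome 6, 19837386 to 19840684, plus strand) had 25.8, 23.8 and 24.2 CPM in KO, against 23.2, 22.7 and 22.7 CPM in WT. The KO libraries were above the WT libraries by a small margin, and the gene was not called (log2 fold change 0.11, SE 0.068, edgeR adjusted p 0.27, 95% interval from −2.11% to 18.6%). For each ID2 read there were 0.338, 0.295 and 0.307 ID4 reads in KO, against 0.245, 0.232 and 0.234 in WT. For each ID2 read there were 1.08, 1.24 and 1.19 ID1 reads in KO, against 1.197, 1.12 and 1.25 in WT. The ratio of ID1 to ID2 overlapped between the genotypes, and the ratio of ID4 to ID2 was higher in every KO library than in any WT library. With 3 libraries a group, an exact permutation test of such a ratio cannot go below p = 0.1, so none is given. Per kilobase of exon, ID1, ID2 and ID4 together reached 113, 128 and 122 CPM per kb in KO, against 145, 143 and 152 CPM per kb in WT, and ID1 made up 59.4% to 63.4% of that sum in KO and 62.2% to 64.7% in WT. The E proteins TCF3, TCF4 and TCF12, which ID proteins bind, were not called at day 2. TCF3, the closest of them to the threshold, averaged 294 ± 8.33 CPM in KO and 278 ± 5.42 CPM in WT (edgeR adjusted p 0.068).

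MSX1 (chromosome 4, 4859666 to 4863936, plus strand), a homeobox repressor, had 64.2, 63.7 and 64.7 CPM in KO, against 72.0, 73.5 and 72.1 CPM in WT. Its groups were far apart relative to their spread, with SDs of 0.484 CPM in KO and 0.827 CPM in WT. The log2 fold change was −0.18 (SE 0.045, edgeR adjusted p 0.00364), a change of −11.5%. MSX2 (chromosome 5, 174724533 to 174730893, plus strand), its paralog, had 59.8, 59.4 and 56.2 CPM in KO, against 72.7, 73.0 and 71.2 CPM in WT. All KO libraries were below all WT libraries, and the fitted log2 difference was −0.30 (SE 0.047, edgeR adjusted p 6.51e-06). There were 1.07, 1.07 and 1.151 MSX1 reads per MSX2 read in KO, against 0.990, 1.01 and 1.01 in WT, so the ratio was higher in every KO library than in any WT library. GENCODE lists a processed pseudogene of MSX2 (MSX2P1), and how reads were divided between such copies is not given in the sources used here.

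Sequence upstream of the start site is shown for 3 targets that fell, ID1, MSX1 and MSX2, and for ID4, which was not called, because all 4 are known targets of the pathway and the test called some and not others. The windows come from RefSeq (GRCh38.p14), run 5′ to 3′ over up to 250 bases before the RefSeq start, and stop before any exon base that GENCODE annotates within them. Capitals mark GGCGCC and GGAGCC, GC-rich elements that SMAD1 and SMAD5 are known to bind, CAGAC, the general SMAD element, and CCAAT, the box bound by NF-Y, each on either strand, so that some stand as their reverse complement, and matches may overlap. The ID1 window is chr20:31605039-31605282, plus strand, the MSX1 window chr4:4859415-4859664, plus strand, the MSX2 window chr5:174724332-174724532, plus strand, and the ID4 window chr6:19837120-19837369, plus strand.
ID1: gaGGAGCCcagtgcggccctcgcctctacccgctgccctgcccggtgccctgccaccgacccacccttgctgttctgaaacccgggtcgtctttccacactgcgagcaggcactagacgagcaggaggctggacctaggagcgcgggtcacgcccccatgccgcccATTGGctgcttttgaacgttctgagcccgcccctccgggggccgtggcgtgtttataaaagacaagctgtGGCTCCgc
MSX1: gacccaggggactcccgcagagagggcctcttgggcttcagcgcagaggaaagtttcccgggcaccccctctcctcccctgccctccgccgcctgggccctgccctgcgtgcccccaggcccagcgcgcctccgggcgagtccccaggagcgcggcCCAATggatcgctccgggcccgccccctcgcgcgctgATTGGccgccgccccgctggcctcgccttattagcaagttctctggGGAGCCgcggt
MSX2: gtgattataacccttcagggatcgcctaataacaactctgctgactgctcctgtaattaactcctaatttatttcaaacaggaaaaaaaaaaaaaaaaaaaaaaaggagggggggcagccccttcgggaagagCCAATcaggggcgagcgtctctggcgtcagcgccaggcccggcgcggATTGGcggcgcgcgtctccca
ID4: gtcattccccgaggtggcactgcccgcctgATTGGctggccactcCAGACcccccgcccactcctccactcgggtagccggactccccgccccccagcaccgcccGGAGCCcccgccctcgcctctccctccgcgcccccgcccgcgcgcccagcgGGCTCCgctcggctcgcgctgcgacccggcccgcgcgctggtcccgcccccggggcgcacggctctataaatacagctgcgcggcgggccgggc
Over the whole 250 bases, CCAAT was present 1 time for ID1, 2 times for MSX1, 2 times for MSX2, 3 times for ID2 and 1 time each for ID4 and BAMBI, and it was in 32.0% of the 35116 RefSeq windows of that length. GGAGCC was present 2 times for ID1, 1 time for MSX1, 2 times for ID4, 4 times for BAMBI, 1 time for ID3 and in 1 of the 3 BMP4 windows (30.6% of all windows had it). GGCGCC was present 3 times for BAMBI and in 1 of the 3 BMP4 windows (16.4% of all windows), and CAGAC 1 time each for ID3 and ID4, 2 times for BAMBI and in 2 of the 3 BMP4 windows (38.0% of all windows). The windows of MSX2 and ID2 held none of the 3 SMAD elements in these 250 bases. No RefSeq window was found for NOG, so NOG was not searched. The first GENCODE exon base came after 71 bases in the BAMBI window, 21 in the ID2 window and 0 in the ID3 window. Counts here include the bases beyond it. GC content over the 250 bases ran from 55.6% (MSX2) to 81.2% (BAMBI), against a median of 58.0% over all windows. TATAAA, the core of a TATA box, lay 33 and 31 bases before the start in the ID1 window, in overlapping matches on both strands, and 29 bases before it in the ID4 window (10.7% of all windows).

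Across the wider list of 23 SMAD1/5 targets, members included, 18 were tested, and 8 fell and 3 rose. Of all genes tested, edgeR called 11.0% lower and 12.3% higher. The median log2 fold change of these targets was −0.05, against −0.00262 for all genes tested. Beyond the members, HAND1, a regulator of extra-embryonic and lateral mesoderm, fell to 332 ± 4.79 CPM in KO, against 373 ± 3.32 CPM in WT (log2 fold change −0.17, edgeR adjusted p 7.91e-05). TBX3, a T-box repressor, fell to 241 ± 6.89 CPM in KO, against 271 ± 8.15 CPM in WT (log2 fold change −0.17, edgeR adjusted p 0.000242). GATA3, a zinc finger factor of amnion and trophoblast, was at 33.8 ± 1.34 CPM in KO and 39.0 ± 0.387 CPM in WT (log2 fold change −0.21, edgeR adjusted p 0.00687). GATA2 (23.8 ± 0.751 CPM in KO and 23.6 ± 0.260 CPM in WT) and TFAP2A (5.61 ± 0.315 CPM in KO and 5.53 ± 0.186 CPM in WT) were not called. SMAD7 was the other target that fell, and BAMBI, SMAD6 and SMAD9 were those that rose.

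**Figure D2:**
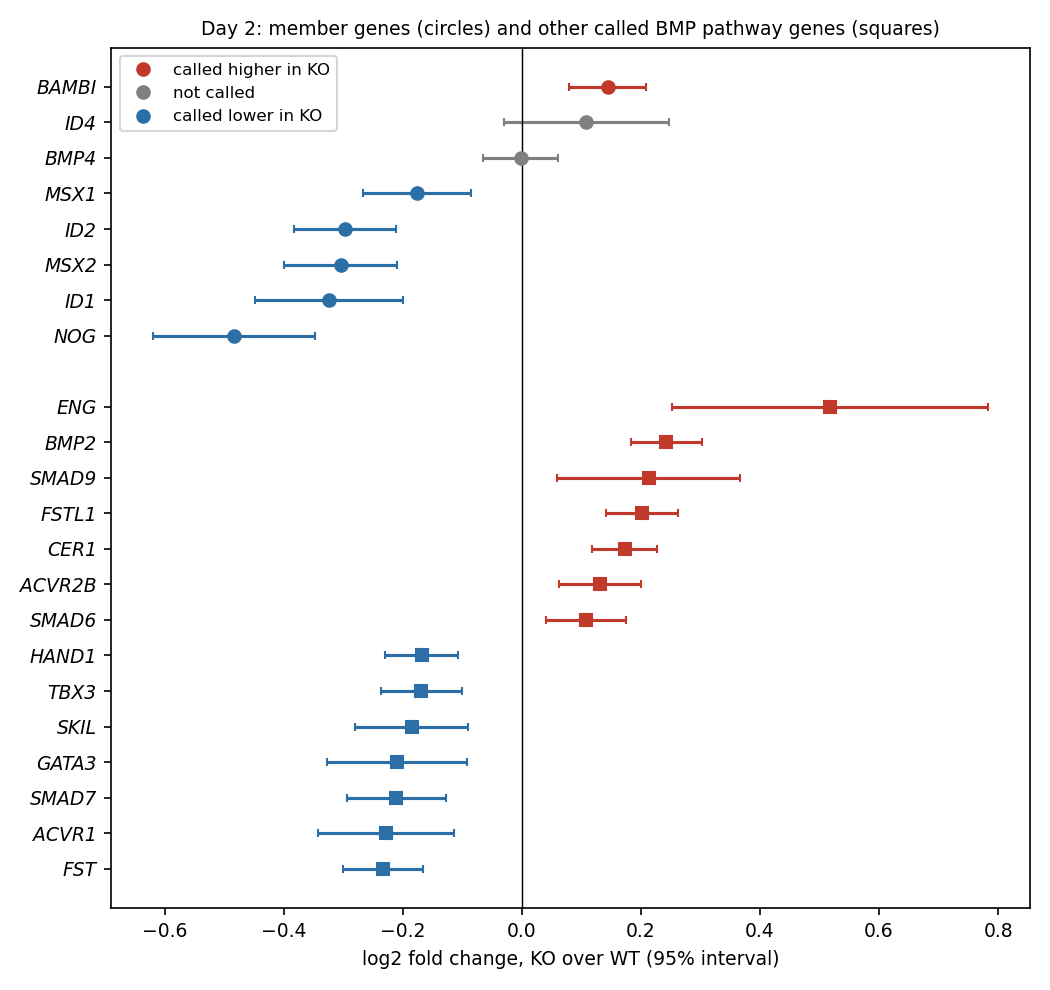
Day 2 log2 fold change, KO over WT, with 95% intervals for the 8 members tested (circles) and for 14 other BMP pathway genes called (squares), in red where higher in KO, blue where lower and grey where not called. NOG at −0.48 is the lowest of the members, and BAMBI at 0.14 is the only member called higher.

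Of 11 receptors and co-receptors listed, 9 were tested, and 2 rose and 1 fell. Over all genes tested, 12.3% were called higher and 11.0% lower. ACVR1, a type I BMP receptor, fell to 37.2, 37.3 and 35.2 CPM in KO, against 43.2, 44.1 and 41.3 CPM in WT (log2 fold change −0.23, SE 0.056, edgeR adjusted p 0.00276). ACVR2B, a type II receptor shared with activin, rose (199 ± 5.50 CPM in KO and 182 ± 2.54 CPM in WT, log2 fold change 0.13, edgeR adjusted p 0.00403), as did ENG, the co-receptor endoglin, at low levels (8.12 ± 1.24 CPM in KO and 5.69 ± 0.391 CPM in WT, log2 fold change 0.52, edgeR adjusted p 0.00335). Exons of ENG and FSTL1 overlap other annotated genes, with the same uncertainty as for ID2. The same holds for SMAD1, SMAD4, SMAD5 and TCF4, and for the markers POU5F1, TDGF1, PDGFRA, GATA6, TFAP2A, NGFR, KRT7 and GABRP. BMPR1A and BMPR2, the main type I and type II BMP receptors, had edgeR adjusted p values of 0.542 and 0.879. Of the SMADs that carry the signal, SMAD1, SMAD5 and SMAD4 were not called (edgeR adjusted p 0.371, 0.962 and 0.921). SMAD9 was called higher (19.9 ± 0.709 CPM in KO and 17.1 ± 0.458 CPM in WT, log2 fold change 0.21, edgeR adjusted p 0.0381). The SMAD9 call was lost with DESeq2 (adjusted p 0.0538), with the replicate number as a block in edgeR (0.0557) and in edgeR without KO replicate 1 (0.0531), KO replicate 3 (0.105), WT replicate 2 (0.108) or WT replicate 3 (0.0874). In all, 15 of the 44 tested pathway genes outside the 9 members were called, 7 higher and 8 lower, where 23.3% of all genes were called. The median log2 fold change of the 44 was 0.02.

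Markers of other cell types were measured beside these genes, where edgeR called 12.3% of all genes tested higher and 11.0% lower. The summed level of the 5 amnion and trophoblast markers tested, some of which are BMP targets, was 66.8 to 68.9 CPM in KO, against 78.8 to 79.5 CPM in WT, and 3 of the 5 (TFAP2C, GATA3 and ISL1) fell. Of 8 streak and mesoderm markers tested 3 rose (MIXL1, KDR and PDGFRA) and 3 fell (T, HAND1 and FOXF1). The sum of the 8 was 4076 to 4129 CPM in KO, against 3981 to 4033 CPM in WT. The 4 endoderm markers tested summed to 9178 to 9340.4 CPM in KO, against 8348 to 8446 CPM in WT, of which CER1 was 8432 CPM in KO and 7482 CPM in WT. CER1 was the 1 endoderm marker that rose, while SOX17 fell (102 CPM in KO and 151 CPM in WT) and GATA6 (741 CPM in KO and 760.1 CPM in WT) and CXCR4 (6.16 CPM in KO and 6.75 CPM in WT) were not called and averaged lower in KO, so the direction of the sum is that of CER1. The 6 pluripotency markers summed to 2707 to 2718 CPM in KO, against 2561 to 2571 CPM in WT. DNMT3B and TDGF1 rose, NANOG fell (5.14 ± 0.629 CPM in KO and 7.63 ± 0.316 CPM in WT, log2 fold change −0.57, edgeR adjusted p 0.00127), and POU5F1, LIN28A and DPPA4 were not called. Of the 3 neural markers tested 2 rose (NES and ZIC2) and none was called lower. They summed to 1009 to 1067 CPM in KO, against 966 to 986 CPM in WT. NES was the largest part of that sum (573 CPM in KO and 525 CPM in WT). OTX2 was not called (edgeR adjusted p 0.0694) but was lower in every KO library than in any WT library (means of 181 CPM in KO and 192 CPM in WT). The neural crest list had 1 marker tested, NGFR (7.19 to 7.49 CPM in KO and 2.79 to 3.30 CPM in WT). The part of these markers in the member results was not tested.

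Per kilobase of exon, the members held the same order of level at day 2 in both genotypes. BAMBI led with 135 to 142 CPM per kb in KO and 123 to 129 CPM per kb in WT. BMP4 followed with 118.7 to 119.1 CPM per kb in KO and 115 to 122 CPM per kb in WT, and ID1 with 66.8 to 81.0 CPM per kb in KO and 88.9 to 98.5 CPM per kb in WT. ID2, MSX1, MSX2, NOG and ID4 came next in that order, down to ID4 with 10.2 to 11.0 CPM per kb in KO and 9.67 to 9.91 CPM per kb in WT. No gene overlapped its neighbour in that order in the 3 libraries of either genotype. Over the 11135 genes with a length in both tables, BMP4 stood at percentile 97.6 of level in KO and 97.4 in WT at day 2. By FPKM at day 0, over the 11285 genes in both tables, it stood at percentile 8.59 in KO and 16.1 in WT, and MSX1 at 0.860 in KO and 1.099 in WT. Genes without day 2 counts were left out of that ranking, so these day 0 ranks hold only among genes counted at day 2. At day 2 MSX1 was at percentile 87.7 in KO and 88.9 in WT; the days differ in unit and table, so these ranks describe each day and are not a test.

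For each member, the gene whose 6 library values at day 2 tracked it most closely was found as the smallest root mean square difference between centred log2 CPM values. MSX1 was closest to CTNNB1, which encodes beta-catenin (0.0089 log2 units), and BMP4 to RHOB (0.00827). ID4 was nearest to SMAD6 (0.0131), ID2 to the sterol reductase gene DHCR7 (0.019), BAMBI to C1GALT1 (0.0112) and MSX2 to SLCO2A1 (0.0212). ID1, with CETN2 at 0.0317, and NOG, with ME1 at 0.054, had the least close neighbours. These are descriptions over 6 libraries that share the genotype split.

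At day 0, with 1 library per genotype and no test, the KO library had more ID3, BAMBI and ID2 and less ID4 and BMP4 than the WT library. A gene counted as past the size threshold when FPKM + 1 differed by at least 1.5-fold and it reached 1 FPKM in either library. Of the 6 members that reached 1 FPKM, 3 were past it upwards, against 4.81% of the 13282 genes kept, and 2 downwards, against 8.77% of those genes. ID2 (KO over WT ratio of FPKM + 1 of 1.52) and BMP4 (0.665) were only just past it. The median log2 ratio, KO over WT, of these 6 members was 0.21, and that of all genes kept was −0.03. These ratios have no replicate behind them.

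**Figure D3:**
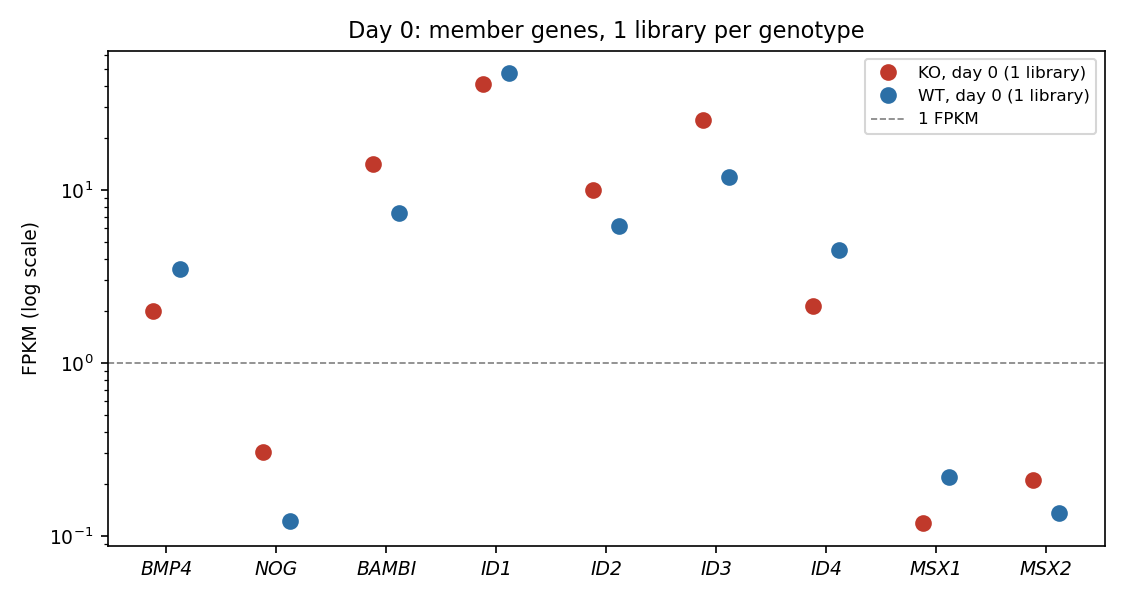
FPKM of the 9 members at day 0 on a log axis, with 1 KO library (red) and 1 WT library (blue), and a dashed line at 1 FPKM. ID1 was highest in both libraries, and NOG, MSX1 and MSX2 lay under the line in both.

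ID3 (chromosome 1, 23557918 to 23559794, minus strand) was at 25.2 FPKM in KO and 11.9 FPKM in WT, a log2 ratio of FPKM + 1 of 1.02, and 1.06% of the genes kept had a ratio as high. BAMBI was at 14.1 FPKM in KO and 7.37 FPKM in WT (log2 ratio 0.85), and ID2 at 9.99 FPKM in KO and 6.23 FPKM in WT (log2 ratio 0.60). ID1, the most abundant member at this stage, was at 41.2 FPKM in KO and 47.3 FPKM in WT, inside the 1.5-fold limit. ID4 was at 2.14 FPKM in KO and 4.47 FPKM in WT (log2 ratio −0.80), and BMP4 at 2.00 FPKM in KO and 3.51 FPKM in WT (log2 ratio −0.59). With a pseudocount of 5 FPKM in place of 1, the ratios of ID2 (0.42), BMP4 (−0.28) and ID4 (−0.41) were no longer past 1.5-fold, whereas those of ID3 (0.84) and BAMBI (0.62) were. The 4 ID genes together came to 78.5 FPKM in KO and 69.9 FPKM in WT, and ID1 made up 52.5% of that sum in KO and 67.6% in WT, while ID3 made up 32.1% in KO and 17.0% in WT. NOG (0.307 FPKM in KO and 0.122 FPKM in WT), MSX1 (0.119 FPKM in KO and 0.221 FPKM in WT) and MSX2 (0.211 FPKM in KO and 0.135 FPKM in WT) were too low for a ratio.

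Among the other pathway genes at day 0, 38 reached 1 FPKM, and 7 were past 1.5-fold upwards and 3 downwards. Of the 13282 genes kept, 4.81% were past it upwards and 8.77% downwards. The inhibitor SMAD7 was the highest of these pathway genes by ratio, at 7.83 FPKM in KO and 2.28 FPKM in WT (log2 ratio 1.43). The others higher in the KO library were PPM1A, a phosphatase of SMADs (9.41 FPKM in KO and 5.04 FPKM in WT), FSTL3 (4.004 FPKM in KO and 1.79 FPKM in WT), CER1 (5.32 FPKM in KO and 2.95 FPKM in WT), SKIL (36.1 FPKM in KO and 22.2 FPKM in WT), ENG (2.44 FPKM in KO and 1.23 FPKM in WT) and HEY1, a Hairy-related repressor (1.25 FPKM in KO and 0.460 FPKM in WT). Lower in the KO library were FST (3.41 FPKM in KO and 7.03 FPKM in WT), the ligand BMP6 (0.794 FPKM in KO and 2.03 FPKM in WT) and the receptor ACVRL1 (0.119 FPKM in KO and 1.33 FPKM in WT). Of the 9 intracellular and membrane inhibitors, 4 (SMAD7, BAMBI, PPM1A and SKIL) were past 1.5-fold upwards and none downwards, with a median log2 ratio of 0.48. The E proteins TCF3, TCF4 and TCF12 were all within 1.5-fold. The summed markers of other states also differed between these 2 libraries, with 14.9 FPKM in KO and 32.7 FPKM in WT for amnion and trophoblast, 96.7 FPKM in KO and 147 FPKM in WT for neural ectoderm, and 1634 FPKM in KO and 1428 FPKM in WT for pluripotency. The direction of the pluripotency sum is that of DNMT3B (527 FPKM in KO and 318 FPKM in WT). NANOG, DPPA4 and TDGF1 were also higher in the KO library. POU5F1 (113 FPKM in KO and 149 FPKM in WT) and LIN28A (445 FPKM in KO and 473 FPKM in WT) were lower. The part of these markers in the member ratios was not tested.

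Set beside each other, the genotype differences of the days were of 1 sign for BAMBI, which was higher in KO on both, and for ID1, which was lower in KO on both, though within 1.5-fold at day 0. ID2 was higher in the KO library at day 0 (log2 ratio 0.60) and lower in all 3 KO libraries at day 2 (log2 fold change −0.30). BMP4 was lower in the KO library at day 0 and the same in both genotypes at day 2, and ID4 was lower in the KO library at day 0 and not called at day 2. The difference between the days could not be tested, since day 0 had 1 library per genotype and another unit.

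**Figure D4:**
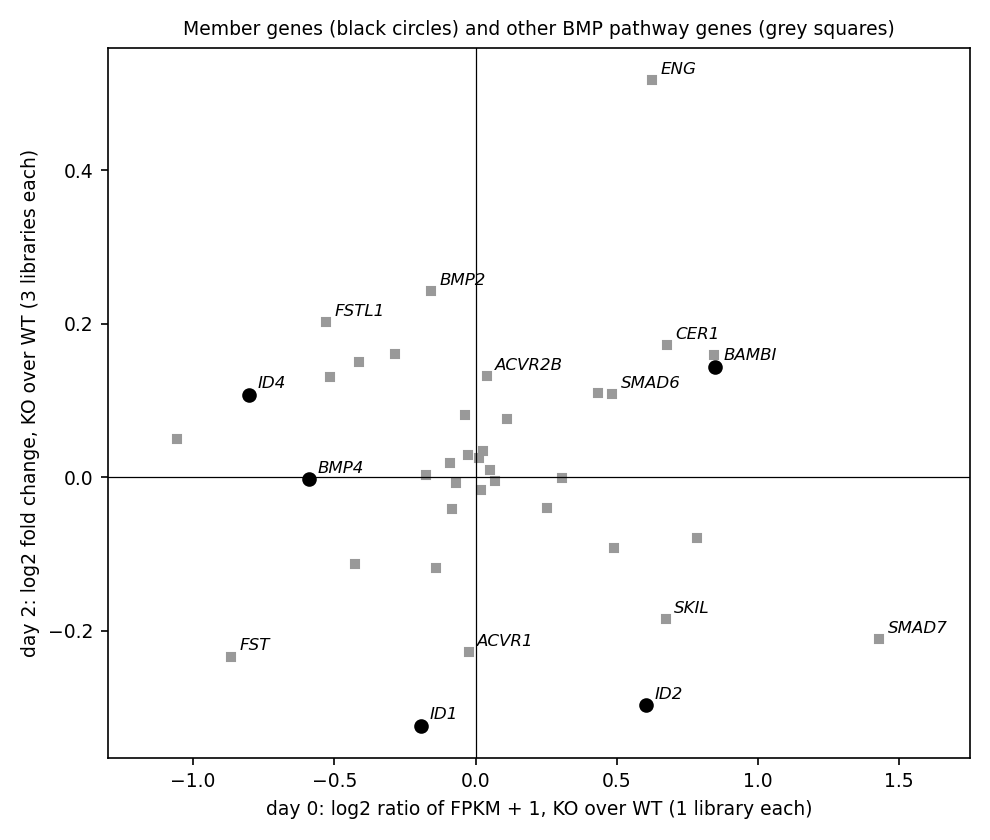
Log2 ratio of FPKM + 1 at day 0 (horizontal) against log2 fold change at day 2 (vertical), both KO over WT, for the 5 members (black circles) and 34 other pathway genes (grey squares) measured on both days; members and genes called at day 2 are named. ID2 sits at lower right with SMAD7 and SKIL, and BAMBI at upper right with CER1 and ENG.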

How the data were processed

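RNA-seq libraries of H1 cells (2 at day 0, 6 at day 2) were analysed from 2 tables. The day 2 table holds raw read counts per gene as deposited by the authors, and the day 0 table holds FPKM values (fragments scaled to transcript length and depth) as deposited by the authors, per the file headers. HISAT2, StringTie and GRCh38/hg38 appear in the submitters' processing notes, which do not state the counter, its strand setting or the annotation. Kit and RNA preparation were the same for all samples, per the labels' protocols.

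Day 2 counts were scaled by TMM, filtered with filterByExpr and tested with edgeR 4.0.16 (robust quasi-likelihood F test, genotype only, Benjamini-Hochberg adjusted p under 0.05, 11475 genes) in R 4.3.3, after the scripts were tested on simulated data. Day 0 values were compared as log2 of FPKM + 1, without a test. Levels per kb used GENCODE 29 exon lengths, and figures and summaries Python 3.11.15. Alternatives were DESeq2 1.42.0, limma 3.58.1 (voom), other scaling, filters and pseudocounts, a minimum of 1.2-fold, the replicate number as a block, and each library left out in turn. The text names SETD7, the members, the other listed pathway genes called at day 2 or past 1.5-fold at day 0, others for their role, and each member's nearest profile. SOX17 and the other cell type markers come from lists. Counts include 1 called pathway gene that is not reported here. Members and lists were chosen with earlier results of these data known.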

Additional observations from a re-analysis of the deposited data

Results flagged for a closer look

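Among the members and listed pathway genes that edgeR called at day 2 and that reached 1 FPKM in either library at day 0, 5 had all 3 KO libraries on one side of the WT libraries at day 2 and the KO library on the other side at day 0. The other genes that met these conditions, ID1, BAMBI, ACVR1, ACVR2B, ENG, SMAD6, FST and CER1, lay on the same side on both days. How often all genes changed side was not worked out, so the 5 are listed without a comparison. Genes that were not called at day 2, ID4 among them (0.11 at day 2 and −0.80 at day 0), are not counted here. The difference between the days was not tested, since day 0 had 1 library per genotype and another unit. ID2 had a log2 fold change of −0.30 at day 2 and a log2 ratio of 0.60 at day 0. BMP2 had 0.24 at day 2 and −0.16 at day 0, where it was at 0.866 FPKM in KO and 1.08 FPKM in WT, within 1.5-fold. SMAD7 had −0.21 at day 2 and 1.43 at day 0. SKIL had −0.19 at day 2 and 0.67 at day 0. FSTL1 had 0.20 at day 2 and −0.53 at day 0, where it was at 64.4 FPKM in KO and 93.4 FPKM in WT, also within 1.5-fold.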

How the results depend on the processing

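The 6 member calls at day 2 kept their direction and passed the test under every alternative run except the 1.2-fold minimum. Under that minimum (edgeR glmTreat) 192 genes were called higher and 54 lower, 1 other pathway gene was called, and NOG was the only member called, while BAMBI (0.14), ID1 (−0.32), ID2 (−0.30), MSX1 (−0.18) and MSX2 (−0.30) were not. BMP4, not called, changed sign with upper-quartile scaling (0.0133), as did SMAD4 (0.00766) and TCF12 (0.0108). With 1 library left out, log2 fold changes ran from −0.0254 to 0.0162 for BMP4, −0.0722 to 0.0116 for BMPR1A, −0.0105 to 0.0225 for BMPR2, −0.0365 to 0.0280 for SMAD4, −0.0165 to 0.0353 for SMAD5, −0.0411 to 0.0181 for TCF12 and −0.00122 to 0.0496 for TCF4, none of them called. They ran from −0.54 to −0.41 for NOG and −0.39 to −0.25 for ID1, and counts of genes called from 1098 to 1307 higher and 907 to 1202 lower. BMPER (adjusted p 0.0326) and TCF3 (0.0280) passed edgeR's test with upper-quartile scaling, under which 1605 genes were called higher, 1010 lower and 17 other pathway genes, against 1406, 1262 and 15. The cause of the shift with upper-quartile scaling was not tested. At day 0 a pseudocount of 5 FPKM left 270 genes past 1.5-fold upwards, 346 downwards and 2 other pathway genes. A minimum of 5 FPKM left 757 downwards and 5 other pathway genes. With both set at 1 FPKM there were 639 upwards, 1165 downwards and 10 other pathway genes. By construction, a larger pseudocount brings every ratio closer to 1, and a higher minimum leaves fewer genes to count.

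Same-numbered KO and WT libraries did not deviate together (correlations of −0.0728, −0.0721 and −0.0373). No sign of pairing by number was therefore seen, but so few libraries cannot exclude it, and the labels do not say. With the replicate block 1205 genes were called higher and 1005 lower, and the 6 member calls were kept (NOG −0.49, MSX1 with the highest edgeR adjusted p, 0.0128).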
